A study of Mus musculus with 8 samples.

Results

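The interferon-stimulated antiviral effectors described here are 46 genes that cells switch on after type I interferon, chosen by name outside the Oas, Ifit, Ifitm, Irf, Gbp and sensor families. A total of 72 array probes were annotated to 43 of them, and a gene was kept where a probe had a detection p under 0.01 on at least 4 of the 8 arrays. In all 35 members passed, of 8252 tested among 19057 named genes, and every passing member was detected on all 8 arrays. The source was CCL17E/+ mice, C57BL/6 animals aged 2 to 5 months in which EGFP reports the chemokine gene Ccl17, and every mouse had received 100 µg of LPS 15 h earlier. Dendritic cells lacking NK1.1 and CD8alpha and carrying CD11c and CD11b were sorted, EGFP-positive ones from mesenteric and peripheral lymph nodes (LN, 4 arrays) and EGFP-negative ones from spleen (4 arrays). Organ and CCL17 status differ together between these groups and cannot be told apart, there were no unstimulated mice, and the number of mice behind an array is not given in the sources used here. The p-values therefore measure the spread between these samples. By the series text both organs came from the same mice, and the main test did not pair the arrays. In such bulk samples, fewer cells of a type and less RNA per cell cannot be told apart either.

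Type I interferon binds the IFNAR receptor, and the kinases JAK1 and TYK2 then activate STAT2, which joins IRF9 in the complex ISGF3. ISGF3 binds interferon-stimulated response elements in promoters and turns on many genes whose products cut, trap, modify or sense viral nucleic acid and protein. In dendritic cells LPS sets off the same loop through TLR4, TRIF and secreted interferon beta.

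Ccl17, on which the cells were sorted, averaged 12.51 ± 0.33 (SD, n = 4 arrays) in LN and 6.24 ± 0.50 (SD, n = 4 arrays) in spleen on the log2 intensity scale, which matches the labels. Of 9 markers of conventional dendritic cells 6 were detected on at least 4 arrays and 0 of those were called different. Itgax, for CD11c, was detected on 6 arrays and Itgam, for CD11b, on 1 array. Mean intensity per array lay between 239 and 521, and 30.4% to 33.1% of probes were detected. Spleen replicate 4 stood apart, with the lowest mean intensity and a mean correlation of 0.895 with the other spleen arrays, against 0.947 to 0.956 for those and 0.974 to 0.979 among LN arrays. Marker sums here and below add intensities before normalization over all probes of a list, undetected ones included. They therefore also carry differences in array brightness and background. Summed intensity of erythroid markers ran from 1090 to 1590 on LN arrays and from 14265 to 66991 on spleen arrays. All 4 of the 4 tested markers were lower in LN, where 7.59% of all genes were. Of these 4, Alas2 was detected on 0 LN arrays and gives no measured LN level. Of 4 tested natural killer cell markers 3 were lower in LN. Of these 3, Klra3 was detected on 0 LN arrays, which gives no measured LN level, and Il18rap on 2. The natural killer cell sum was 3141 to 4668 on LN arrays and 2946 to 4287 on spleen arrays. Ncr1, Klrb1c and Eomes were detected on 0 arrays. The 1 tested T cell marker, Thy1, was higher in LN, where the T cell sum was 881 to 1107 against 563 to 694 in spleen. Thy1 was detected on 4 LN arrays and 1 spleen array, and Cd3g on 0 arrays. The 1 tested B cell marker was not called. The part of these cells in the results was not tested.

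The antiviral effectors were lower in the LN cells than in the splenic cells. Of 35 members 22 were called lower and 0 higher at an adjusted p under 0.05 (limma, with Benjamini-Hochberg adjustment over 8252 genes), where 7.59% of all genes were called lower and 7.99% higher. The log2 fold of LN over spleen was negative for 34 members, against 47.6% of all genes. Its median was -1.07 over the members, with quartiles of -1.61 and -0.53, and 0.03 over all genes. A log2 fold of -1 or below was called in 18 members, against 5.31% of all genes. In 21 members all 4 LN values lay below all 4 spleen values, which 9.94% of all genes did. No member had all 4 LN values above the spleen values, which 12.2% of all genes did.

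The members differed widely in the size of the difference. At one end stood Isg20, Samd9l, Mx2 and Pml, with log2 folds of -3.03, -2.37, -2.30 and -2.14. At the other were Trim25, Adar and Epsti1, with -0.03, -0.01 and 0.26, and Epsti1 was the 1 member with a positive fold. When arrays were scaled only to equal medians, the median fold of all genes became 0.24, and 66.5% of all calls were then higher in LN, against 51.3% before. On that scale 13 members were called lower and 0 higher, where 3.82% of all genes were lower, and Adar and Trim25 had positive folds of 0.23 and 0.15. The member median relative to that of all genes was -1.10 under either scaling.

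**Figure D1:**
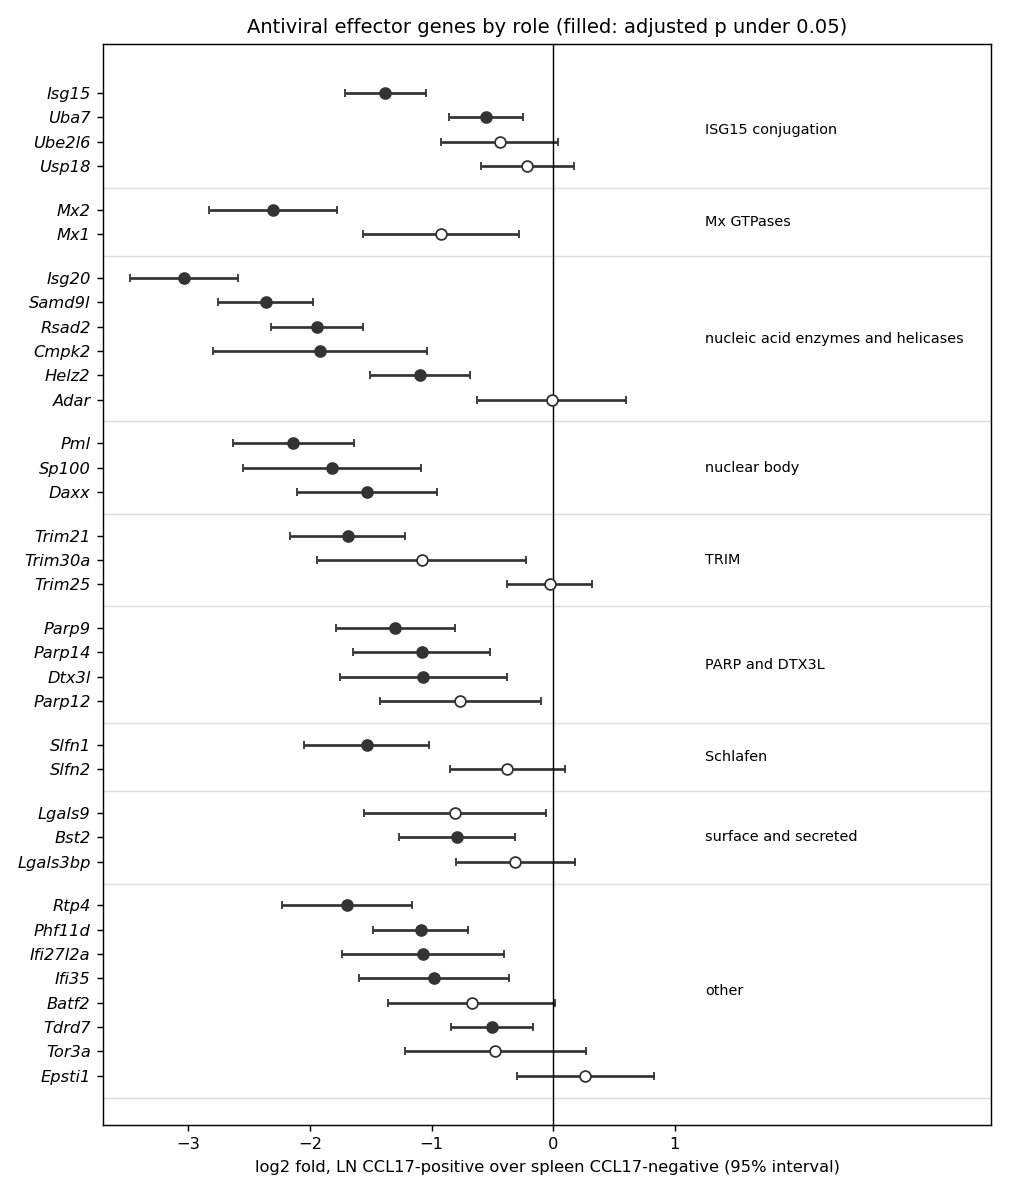
Log2 fold of LN over spleen (x axis) for each of the 35 passing members, grouped by role (y axis), with 95% intervals from the limma fit on 4 arrays per group. Filled points passed an adjusted p of 0.05, and all but Epsti1 lie left of 0.

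**Figure D2:**
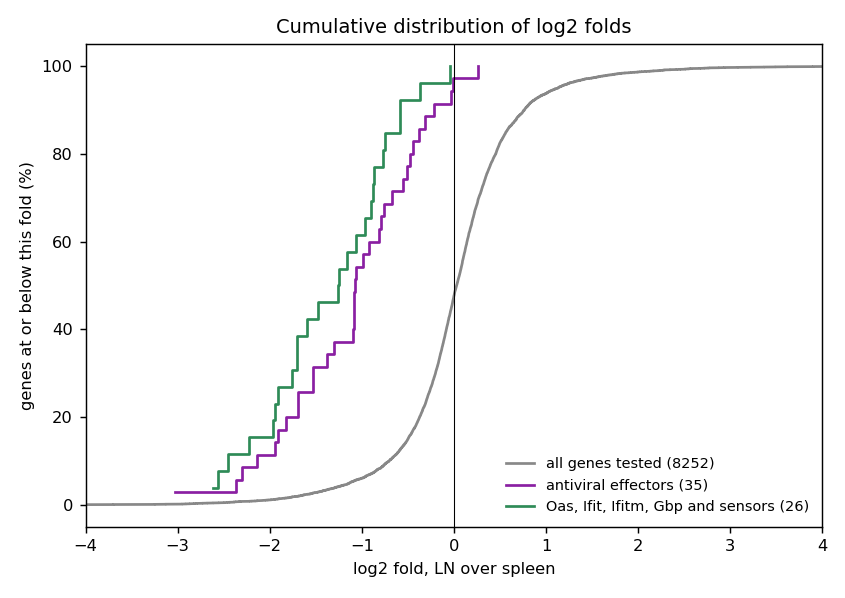
Cumulative share of genes (y axis, percent) at or below each log2 fold of LN over spleen (x axis) for 8252 tested genes, the 35 antiviral effectors and 26 genes of the Oas, Ifit, Ifitm, Gbp and sensor families. The medians are 0.03, -1.07 and -1.25.

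Promoters show what some of these genes share outside the array values. The sequences are those of RefSeq on build GRCm38.p6, from 250 bases before to 50 bases after a gene start, and 35 of the 46 members had at least 1. The core shared by interferon-stimulated response elements, GAAA, any 2 bases and GAAA again, was searched on both strands with overlapping matches counted. This motif stood in a promoter of 10 of these 35 members (28.6%), against 1079 of 27025 genes (3.99%). Among the tested genes 9.66% of those lower in LN, 3.63% of those higher and 3.72% of those not called held it. The 12 promoters with a match held 17 distinct matches, since the windows of 2 Slfn8 starts overlap and share 1, and 8 of the 17 lay within 100 bases before a start. Among passing members the 7 with a match had a median log2 fold of -1.08 and the 19 without had -1.07. The 5 called members with a match are printed for where these letters sit, followed by Samd9l, whose large fold came with no match. Capitals mark the matched letters, on the strand printed (the gene's own, 5′ to 3′) either as GAAA, 2 bases, GAAA or as the reverse complement TTTC, 2 bases, TTTC.
Isg15, chr4:156200769-156201068, minus strand: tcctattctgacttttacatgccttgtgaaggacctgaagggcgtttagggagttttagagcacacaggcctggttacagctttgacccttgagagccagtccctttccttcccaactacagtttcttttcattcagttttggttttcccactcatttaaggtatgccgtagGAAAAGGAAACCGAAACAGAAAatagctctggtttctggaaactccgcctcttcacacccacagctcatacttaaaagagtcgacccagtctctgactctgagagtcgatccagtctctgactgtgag
Rsad2, chr12:26456403-26456702, minus strand: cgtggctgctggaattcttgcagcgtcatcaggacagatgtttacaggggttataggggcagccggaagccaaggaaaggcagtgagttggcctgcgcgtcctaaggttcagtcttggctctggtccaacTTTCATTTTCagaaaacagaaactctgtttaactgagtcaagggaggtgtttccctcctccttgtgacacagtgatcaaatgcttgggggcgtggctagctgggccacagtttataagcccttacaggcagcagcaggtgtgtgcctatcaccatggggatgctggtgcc
Bst2, chr8:71537423-71537722, minus strand: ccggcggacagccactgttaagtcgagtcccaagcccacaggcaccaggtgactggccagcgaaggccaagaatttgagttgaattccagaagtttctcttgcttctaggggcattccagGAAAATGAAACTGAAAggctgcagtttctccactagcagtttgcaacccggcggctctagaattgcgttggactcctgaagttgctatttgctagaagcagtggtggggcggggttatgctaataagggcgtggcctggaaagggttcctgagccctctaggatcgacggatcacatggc
Trim21, chr7:102565433-102565732, minus strand: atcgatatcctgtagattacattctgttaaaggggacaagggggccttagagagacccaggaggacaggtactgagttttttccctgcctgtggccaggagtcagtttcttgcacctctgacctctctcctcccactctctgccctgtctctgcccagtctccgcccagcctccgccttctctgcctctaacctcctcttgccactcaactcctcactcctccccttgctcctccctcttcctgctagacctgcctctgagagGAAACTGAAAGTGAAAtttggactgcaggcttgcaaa
Tdrd7, chr4:45972047-45972346, plus strand, 1 of its 3 starts: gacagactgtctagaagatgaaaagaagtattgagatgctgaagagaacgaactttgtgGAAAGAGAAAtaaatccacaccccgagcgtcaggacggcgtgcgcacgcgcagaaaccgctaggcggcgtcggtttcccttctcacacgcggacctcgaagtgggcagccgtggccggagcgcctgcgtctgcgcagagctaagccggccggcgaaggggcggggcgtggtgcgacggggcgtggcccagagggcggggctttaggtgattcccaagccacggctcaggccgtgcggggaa
Samd9l, chr6:3399522-3399821, minus strand: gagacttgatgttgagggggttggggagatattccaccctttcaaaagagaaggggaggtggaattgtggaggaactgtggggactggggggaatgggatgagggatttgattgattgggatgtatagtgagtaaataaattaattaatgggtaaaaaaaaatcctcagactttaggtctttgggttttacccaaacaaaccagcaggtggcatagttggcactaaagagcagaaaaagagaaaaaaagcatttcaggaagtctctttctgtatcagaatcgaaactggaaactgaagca
Isg15 holds 3 overlapping matches, the first beginning 78 bases before the start. Bst2 holds 2 that overlap, the first 130 bases before it, and in Rsad2 the match begins 120 bases before it. The 2 matches of Trim21 lie past the start, within the transcribed bases. A match is a description of letters and no evidence that a factor binds, and a window without one says only that these letters are not in it.

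**Figure D3:**
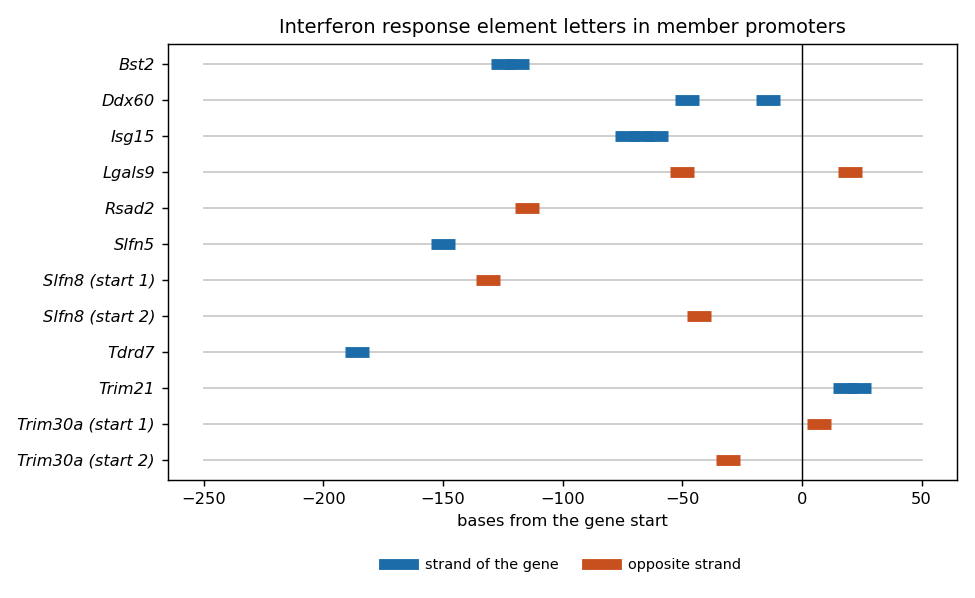
Position of each motif match (bases from the gene start, x axis) in the 12 member promoters that hold one (y axis), coloured by strand, with the 1 match of Slfn8 drawn from each of its 2 starts. Gray lines span the 300 bases searched, and Isg15, Bst2 and Trim21 each hold overlapping matches.

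The ISG15 system attaches the ubiquitin-like protein ISG15 to target proteins. The modifier and its activating enzyme were called lower, and the conjugating and removing enzymes did not pass the test. Of 4 passing members 2 were called lower and 0 higher, where 7.59% of all genes were lower. The modifier Isg15 read 11.29, 11.24, 11.68 and 11.34 on LN replicates 1 to 4, and 12.84, 12.79, 12.69 and 12.76 on spleen replicates 1 to 4 (log2 intensity). All LN arrays lay below all spleen arrays, whose SD was 0.06 (n = 4). Isg15 was 2.61-fold lower in LN (log2 fold -1.38 ± 0.15 SE, adjusted p 0.000187). Uba7, the E1 enzyme that activates ISG15, read 13.87, 14.11, 14.35 and 14.00 in LN against 14.64, 14.59, 14.57 and 14.73 in spleen. Its log2 fold was -0.55 ± 0.14 (adjusted p 0.021), and leaving out LN replicate 1, LN replicate 4 or spleen replicate 1 ended the call (adjusted p 0.0528 to 0.071). It was also lost with median scaling (adjusted p 0.537), without the intensity trend (0.0598) and without a detection filter (0.0769). Usp18, the protease that takes ISG15 off again and also damps IFNAR signalling, read 12.77, 12.56, 13.11 and 12.45 in LN against 12.95, 12.79, 13.11 and 12.89 in spleen. These groups overlapped, with a log2 fold of -0.21 (95% interval -0.60 to 0.17, adjusted p 0.495). Ube2l6, the E2 conjugating enzyme, had -0.44 ± 0.22 (adjusted p 0.231). Herc6, the ligase in mice, had no annotated probe.

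Isg15 and Usp18 were compared on each array, since both belong to one system. This and 5 further comparisons of related members were chosen with their values known, and their p-values were adjusted over the 6. The log2 fold of Isg15 minus that of Usp18 was -1.17 ± 0.12 (SE), with p = 0.0286 by an exact two-sided permutation test (0.0429 adjusted), and 70 arrangements can give no smaller p. That test does not keep same-numbered arrays together. An exact test over the 4 same-numbered pairs, added after the data were seen, cannot go below p = 0.125 with its 16 sign arrangements. It gave 0.125 here and for each of the 3 other comparisons below that pass without pairing, so none passed with it, and in each of these 4 the difference was negative in 4 of 4 pairs.

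The Mx proteins are dynamin-like GTPases that trap viral nucleocapsids. In C57BL/6 mice the Mx1 allele carries a deletion and makes no working protein. The transcripts of Mx1 and Mx2 are both read here as markers only, since protein was not measured. Mx2 read 9.09, 9.24, 9.87 and 8.87 in LN and 11.33, 11.37, 11.78 and 11.79 in spleen. It was 4.93-fold lower in LN (-2.30 ± 0.24, adjusted p 0.000137), with no overlap. Mx1 read 9.63, 8.80, 9.10 and 8.54 in LN and 10.37, 10.07, 9.99 and 9.32 in spleen. Its LN replicate 1 exceeded spleen replicate 4, and the fold of -0.92 ± 0.29 missed the threshold (adjusted p 0.0573). Mx1 was called without LN replicate 1 (adjusted p 0.0342), without spleen replicate 4 (adjusted p 0.00539) and with replicate number as a block (adjusted p 0.00647). The log2 fold of Mx2 was below that of Mx1 (difference -1.38 ± 0.43 SE, unpaired exact permutation p = 0.0286, 0.0429 adjusted).

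Among enzymes that act on nucleotides and nucleic acids were Isg20 and Samd9l, the members with the largest folds. Of 6 passing members 5 were called lower and 0 higher, where 7.59% of all genes were lower. The median log2 fold of the 6 was -1.93. Isg20, a 3′ exonuclease that degrades single-stranded RNA, read 7.51, 7.35, 7.12 and 7.08 in LN and 10.04, 10.26, 10.28 and 10.62 in spleen. It was 8.19-fold lower in LN (-3.03 ± 0.20, adjusted p 1.35e-05), and the fold was -2.72 within the first BeadChip and -3.35 within the second. Samd9l, a brake on viral translation and on growth, read 10.89, 11.12, 11.04 and 10.50 in LN and 13.15, 13.36, 13.42 and 13.08 in spleen. Its 5.15-fold difference (-2.37 ± 0.18, adjusted p 1.97e-05) far exceeded the SD of 0.27 in LN and 0.16 in spleen (n = 4 each). Rsad2 encodes viperin, which makes a chain-terminating nucleotide from CTP. It read 12.58, 12.41, 12.38 and 12.25 in LN and 14.03, 14.32, 14.29 and 14.74 in spleen, a 3.84-fold difference (-1.94 ± 0.17, adjusted p 5.24e-05).

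Cmpk2, a mitochondrial nucleotide kinase, lies next to Rsad2 on chromosome 12, on the opposite strand and with no protein-coding gene between them. It was 3.77-fold lower in LN (-1.91 ± 0.40, adjusted p 0.00801). Its values were 8.86, 9.12, 8.58 and 7.95 in LN and 10.91, 11.15, 10.75 and 9.34 in spleen. Spleen replicate 4 was its lowest spleen array, while Rsad2 was highest there. The folds of these neighbours differed by -0.03 ± 0.58 (SE, exact permutation p = 1), an error too wide to tell a small difference. Helz2, a helicase and nuclear receptor coactivator, was 2.14-fold lower (-1.10 ± 0.19, adjusted p 0.00255). The calls of Cmpk2 and Helz2 were lost with median scaling (adjusted p 0.0854 and 0.0793).

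Adar, the enzyme that edits adenosine to inosine in double-stranded RNA, was not called. It read 9.77, 9.38, 10.06 and 10.03 in LN and 9.48, 9.38, 9.93 and 10.52 in spleen, with a log2 fold of -0.01 (95% interval -0.63 to 0.60, adjusted p 0.986). Its 5 passing probes had folds between -0.85 and 0.00262, and 0 of them were called. With the mean of these probes the fold was -0.44 ± 0.17 (adjusted p 0.108). The next brightest probe also had a fold near 0 (0.00262), and the dimmer ones had -0.85, -0.82 and -0.51. Pnpt1, a mitochondrial RNA exonuclease, was detected on 0 arrays and Ddx60, a helicase, had no annotated probe.

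**Figure D4:**
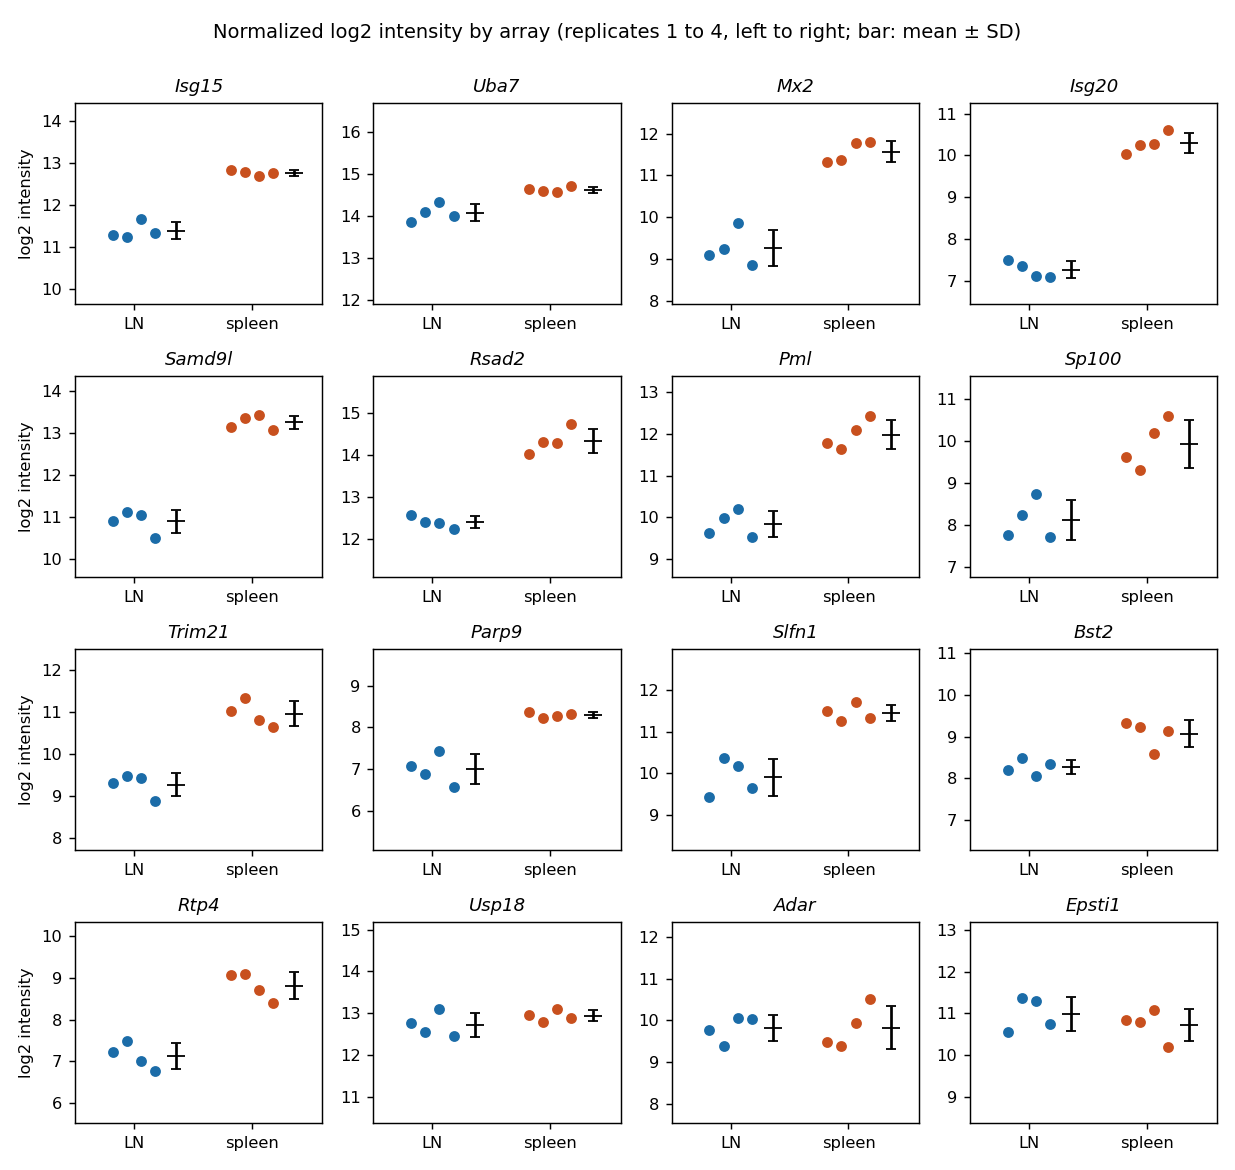
Normalized log2 intensity (y axis, each panel spanning the same number of log2 units) on each LN and spleen array for 16 members, with points for replicates 1 to 4 from left to right and the mean ± SD beside them (n = 4). Isg20, Samd9l and Mx2 show wide gaps between groups, while Usp18, Adar and Epsti1 overlap.

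Proteins of nuclear bodies bind and silence incoming viral DNA. All 3 passing members were called lower in LN, where 7.59% of all genes were. Each of these 3 calls held under every alternative, within either BeadChip included. Pml, the scaffold of the bodies, read 9.63, 9.98, 10.21 and 9.54 in LN and 11.78, 11.63, 12.08 and 12.41 in spleen (-2.14 ± 0.22, adjusted p 0.000154). Of its 3 passing probes 1 was detected on spleen arrays alone and gives no measured LN level. Sp100, a core component, read 7.76, 8.23, 8.74 and 7.71 in LN and 9.62, 9.30, 10.20 and 10.60 in spleen (-1.82 ± 0.33, adjusted p 0.00375). Of its 3 passing probes only the brightest was called. Daxx, a histone H3.3 chaperone, had 11.20, 11.13, 11.57 and 11.53 in LN against 12.47, 12.47, 12.98 and 13.63 in spleen (-1.53 ± 0.26, adjusted p 0.0026). All 3 genes were highest on spleen replicate 4, and without it their folds were -1.99, -1.60 and -1.28, all still called. Sp110, a relative of Sp100, was detected on 1 array and is not reported further.

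Many TRIM proteins are ubiquitin ligases. Of 3 passing members 1 was called lower and 0 higher, where 7.59% of all genes were lower. Trim21, an antibody receptor in the cytosol that targets coated viruses, read 9.31, 9.48, 9.44 and 8.87 in LN and 11.02, 11.35, 10.82 and 10.66 in spleen. It was 3.23-fold lower (-1.69 ± 0.21, adjusted p 0.000462) on its brightest probe, while a second, dimmer probe detected on 6 arrays was not called (-0.56 ± 0.30). Trim25, which ubiquitinates the RIG-I pathway, read 12.39, 12.58, 12.59 and 12.47 in LN and 12.78, 12.59, 12.56 and 12.21 in spleen. Its log2 fold was -0.03 (95% interval -0.38 to 0.32, adjusted p 0.939), and the sign turned under some alternatives, median scaling among them. The log2 fold of Trim21 was below that of Trim25 (difference -1.66 ± 0.17 SE, unpaired exact permutation p = 0.0286, 0.0429 adjusted), and the difference was -1.10 with the mean of probes. Trim30a, a mouse TRIM protein that restrains NF-kappaB, read 11.10, 11.44, 10.85 and 10.55 in LN and 12.63, 12.56, 12.31 and 10.77 in spleen. Its fold of -1.08 ± 0.39 was not called (adjusted p 0.0934). Spleen replicate 4 alone lay within the LN range, and without it the fold was -1.51 (adjusted p 0.000253). With the replicate block the adjusted p was 0.00945. Trim14 was detected on 0 arrays.

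The PARP enzymes transfer ADP-ribose, and PARP9 works as a complex with the ubiquitin ligase DTX3L. Parp14, Dtx3l and Parp9 lie side by side on chromosome 16, and all 3 were called lower, where 7.59% of all genes were. With median scaling Parp9 alone of these stayed called, with an adjusted p of 0.0556 for Parp14 and 0.314 for Dtx3l. Parp9 read 7.08, 6.89, 7.43 and 6.57 in LN and 8.37, 8.22, 8.26 and 8.32 in spleen (-1.30 ± 0.22, adjusted p 0.00261), and its other probe had a fold of -2.32. Parp14 read 12.19, 12.25, 13.12 and 12.65 in LN and 13.40, 13.29, 13.65 and 14.20 in spleen (-1.08 ± 0.26, adjusted p 0.0161). Its call was lost without LN replicates 1 or 2 (adjusted p 0.0512 to 0.0572). Dtx3l read 11.48, 11.79, 10.41 and 10.69 in LN and 12.64, 12.10, 11.96 and 11.93 in spleen (-1.07 ± 0.31, adjusted p 0.0414). Leaving out any array but LN replicate 2 and spleen replicate 4 ended its call (adjusted p 0.0546 to 0.125), as did the mean of its probes (adjusted p 0.0948). The folds of the partners Parp9 and Dtx3l differed by -0.23 ± 0.43 (SE, exact permutation p = 0.657). With the mean of their probes the difference was -1.08 ± 0.25 (unpaired exact permutation p = 0.0286), so it rests on the probe chosen. Parp12 read 9.03, 9.32, 8.98 and 8.97 in LN and 10.32, 10.40, 9.62 and 9.02 in spleen, and was not called (-0.76 ± 0.30, adjusted p 0.124). It was called without spleen replicate 4 (-1.04, adjusted p 0.00353) and with the replicate block (adjusted p 0.0462).

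The Schlafen genes, regulators of immune cell quiescence, form a cluster on chromosome 11, where Slfn2 and Slfn1 are direct neighbours. Slfn1 read 9.44, 10.38, 10.18 and 9.65 in LN and 11.49, 11.25, 11.70 and 11.33 in spleen, and was 2.89-fold lower in LN (-1.53 ± 0.23, adjusted p 0.00133). Slfn2 read 8.28, 7.86, 7.78 and 7.64 in LN and 8.32, 8.51, 8.22 and 8.02 in spleen, with overlapping groups (-0.38, 95% interval -0.85 to 0.09, adjusted p 0.297). The log2 fold of Slfn1 lay below that of Slfn2 (difference -1.15 ± 0.34 SE, unpaired exact permutation p = 0.0286, 0.0429 adjusted). Slfn5 and Slfn8 were detected on 0 arrays.

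Of 3 passing surface and secreted members 1 was called lower and 0 higher, where 7.59% of all genes were lower. Bst2, the tetherin that holds budding virus at the membrane, read 8.21, 8.48, 8.07 and 8.34 in LN and 9.32, 9.22, 8.59 and 9.13 in spleen (-0.79 ± 0.21, adjusted p 0.0318). Leaving out any array but LN replicate 2, spleen replicate 3 and spleen replicate 4 ended its call (adjusted p 0.074 to 0.0956). So did median scaling (-0.56, adjusted p 0.333), which left 0 of the 3 called. BST2 also marks plasmacytoid dendritic cells, the strongest interferon producers. Of 12 markers of those cells 6 passed, with a median log2 fold of -0.62 and a positive fold for Spib alone (0.75). In LN 2 were called lower (Tlr7 and Pacsin1) and 0 higher, where 7.59% of all genes were lower, and Ccr9 was detected on 0 arrays. The summed intensity of the 11 markers with a probe was 3706 to 6841 on LN arrays and 3487 to 9504 on spleen arrays. The part of these cells in the result was not tested. Lgals3bp, a secreted glycoprotein that binds galectins, read 12.62, 12.21, 12.82 and 12.67 in LN and 12.62, 12.50, 13.10 and 13.35 in spleen (-0.31, 95% interval -0.80 to 0.18, adjusted p 0.429). Lgals9, the lectin galectin-9, had -0.81 ± 0.34 (adjusted p 0.151) and was called without spleen replicate 1 (-1.09, adjusted p 0.0433). Siglec1, the sialic acid receptor of metallophilic macrophages, was detected on 0 arrays. Of 15 markers of macrophages and monocytes 9 passed, 1 was called lower in LN (Spic, -2.73 ± 0.19, adjusted p 1.42e-05) and 0 higher. That 1 lower call among 9 is near the 7.59% of all genes called lower. The median log2 fold of the 9 was 0.46. The 5 positive folds were those of Csf1r (0.46), Timd4 (0.60), C1qb (0.68), Vcam1 (0.83) and C1qc (1.04). The 4 negative ones were those of Spic, Hmox1 (-0.49), Fcgr1 (-0.20) and Adgre1 (-0.19). The summed intensity of the 14 markers with a probe was 3417 to 5059 on LN arrays and 4487 to 9662 on spleen arrays. Cd163 and Ccr2 were detected on 0 arrays, and the part of macrophages and monocytes in the result was not tested.

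Among the remaining members 5 of 8 were called lower and 0 higher, where 7.59% of all genes were lower. Rtp4, a chaperone of membrane receptors, read 7.22, 7.49, 7.00 and 6.76 in LN and 9.06, 9.10, 8.70 and 8.40 in spleen, a 3.24-fold difference (-1.69 ± 0.24, adjusted p 0.000941). Phf11d, a PHD finger gene, read 12.32, 12.33, 12.61 and 12.36 in LN and 13.25, 13.36, 13.43 and 13.95 in spleen (-1.09 ± 0.18, adjusted p 0.00202). Ifi27l2a, a small membrane protein strongly induced by interferon, read 12.30, 12.73, 11.90 and 11.51 in LN and 13.54, 13.58, 13.09 and 12.53 in spleen (-1.07 ± 0.30, adjusted p 0.037). It was the 1 called member whose groups overlapped, LN replicate 2 lying above spleen replicate 4. Ifi35, which pairs with NMI, had -0.98 ± 0.28 (adjusted p 0.0376), and Tdrd7, a tudor domain protein that inhibits autophagy, -0.50 ± 0.15 (adjusted p 0.0473). Nmi itself was detected on 0 arrays.

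These last 3 calls hung on single arrays and on the scaling. With median scaling the adjusted p was 0.37 for Ifi27l2a, 0.0816 for Ifi35 and 0.51 for Tdrd7. On that scale 2 of the 8 remaining members were called lower, where 3.82% of all genes were. That of Ifi27l2a ended when any array but LN replicate 2 and spleen replicate 4 was left out (adjusted p 0.0714 to 0.109). That of Ifi35 was lost without any of the LN replicates or without spleen replicate 3 (adjusted p 0.0603 to 0.105). Tdrd7 stayed called only without spleen replicate 4 and had an adjusted p of 0.0666 to 0.135 without any other array. Epsti1, an interferon-induced epithelial and stromal gene, read 10.55, 11.38, 11.29 and 10.76 in LN and 10.85, 10.79, 11.10 and 10.19 in spleen (0.26, 95% interval -0.30 to 0.83, adjusted p 0.586). Batf2, a transcription factor of the AP-1 family, had -0.67 ± 0.31 (adjusted p 0.197) and Tor3a, an ATPase of the torsin family, -0.48 ± 0.34 (adjusted p 0.422). Xaf1, an antagonist of XIAP, was detected on 2 arrays and Ifi44 had no annotated probe.

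Over all their 54 passing probes the members had 26 called lower and 0 higher, against 6.18% of all 14726 passing probes lower, and the 26 include the Pml probe detected on 0 LN arrays. Of 13 members with several passing probes 4 had probes whose calls differed (Dtx3l, Parp14, Sp100 and Trim21), and only those of Adar differed in sign.

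The difference held from array to array. Of the 35 members 28 were lower in LN in each of the 4 same-numbered comparisons, against 18.8% of all genes. With replicate number as a block 25 members were called lower, where 9.94% of all genes were. The median difference was -1.21, -1.04, -0.88 and -1.33 for replicates 1 to 4, with 31 to 33 members lower each time. On the first BeadChip alone the median log2 fold was -1.04 with 25 members lower, and on the second -1.10 with 9 lower, where 11.3% and 2.22% of all genes were lower. All 22 called members had a negative fold on both. The 9 called on the second were Isg20, Samd9l, Rsad2, Mx2, Pml, Sp100, Daxx, Slfn1 and Dtx3l. Within the splenic group the members did not move as a block. On spleen replicate 4, 17 members had their highest spleen value, among them Isg20, Rsad2, Pml, Sp100 and Daxx, and 12 their lowest, among them Mx1, Cmpk2, Trim30a, Parp12 and Rtp4. Over all genes spleen replicate 4 also stood apart (mean correlation 0.895 with its group). The share of all genes with an extreme there is not given, so these counts are not particular to the members. Without that array 25 members were called lower and 0 higher, where 11.9% of all genes were lower, and the median was -1.07.

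**Figure D5:**
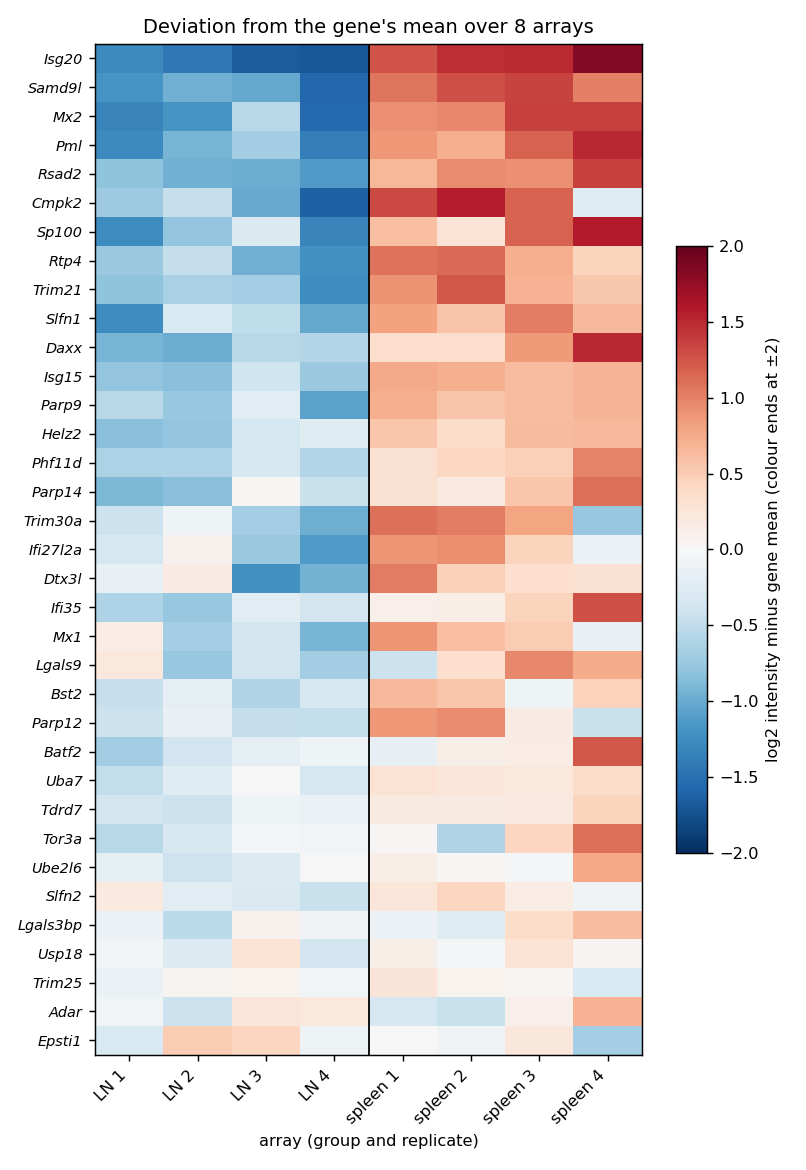
Log2 intensity minus the gene's mean over the 8 arrays (colour) for each of the 35 members (rows, by log2 fold) on each array (columns, LN left of the line). LN columns are mostly below and spleen columns mostly above the gene's mean, and spleen replicate 4 holds both the highest and the lowest spleen values of many members.

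The other interferon-induced families went the same way. Of 30 listed genes of the Oas, Ifit, Ifitm, Gbp and sensor families 26 passed, with a median log2 fold of -1.25. In LN 20 were called lower and 0 higher, where 7.59% of all genes were lower and 7.99% higher. The largest folds were those of Ifit1bl1 (-2.61 ± 0.25, adjusted p 9.27e-05), Ifitm6 (-2.56 ± 0.39, adjusted p 0.00147) and Oas2, a synthetase that activates RNase L (-2.45 ± 0.23, adjusted p 8.35e-05). Oas3, another synthetase, had -2.22 ± 0.40 (adjusted p 0.00355) and Ifit2, which binds viral RNA, -1.97 ± 0.29 (adjusted p 0.00121). With median scaling 10 of the 26 were called lower, where 3.82% of all genes were.

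The genes of the signalling chain were mixed in the sign of their folds. Of 18 listed genes 14 passed, 10 with a negative and 4 with a positive log2 fold. In LN 4 were called lower and 1 higher, where 7.59% of all genes were lower and 7.99% higher. The 1 higher call among 14 is near the share of all genes. Irf7, which amplifies interferon production, had -2.14 ± 0.33 (adjusted p 0.00141) and Stat2, a subunit of ISGF3, -1.54 ± 0.18 (adjusted p 0.000277). Ifngr1, a chain of the interferon gamma receptor, had -1.63 ± 0.20 (adjusted p 0.000389), and the feedback inhibitor Socs3 -1.49 ± 0.22 (adjusted p 0.00121). Tyk2, the kinase on IFNAR1, was higher (0.68 ± 0.15, adjusted p 0.011). Irf9, a DNA-binding part of ISGF3, had -0.35 ± 0.30 (adjusted p 0.526). Ifnar1, Ifnb1 and Ifna4 were detected on 0 arrays. Without spleen replicate 4, 8 of the 14 were lower and 1 higher, where 11.9% of all genes were lower. Median scaling left 3 lower and 0 higher, where 3.82% of all genes were lower. With the mean of probes 5 were lower and 0 higher, where 8.3% of all genes were lower.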

How the data were processed

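RNA of 8 sorted samples, 4 per group by the sample titles, was hybridised to mouse Illumina BeadChips. Per the file headers, the deposited table pairs a linear bead intensity with a detection p-value for every probe and array. The intensities had not been normalized between arrays, and the steps of the p-values correspond to 936 negative controls. A second deposited table, of the authors' processed values, served as an alternative. The authors' deposited values are on a log2 scale with equal quantiles, and each array correlated at 0.998989 or more with its own log2 intensities. The submitters' processing notes name Partek with no role or version. Scanner software and any background step were not stated in those sources. A table of gene names gave 34885 of 45281 probes 1 symbol, 18 several and 10378 none, and 0 columns belonged to other samples. Precision is limited by the number of arrays. At most 0.00221% of intensities were equal between any pair of arrays, so none was a repeat deposit.

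The neqc function of limma 3.58.1 (R 4.3.3) estimated background from negative controls implied by the detection p-values, then added an offset of 16, equalized quantiles and took log2. Probes were kept at a detection p under 0.01 on at least 4 arrays (14726 probes). The brightest passing probe stood for a gene. Group means were compared by lmFit and trended eBayes, two-sided, and a gene was called where the p adjusted by Benjamini-Hochberg was under 0.05. A log2 fold is LN over spleen ± its standard error (SE). The fit was tested on simulated data. Levels of different probes were not compared. Tables and plots also used jsonlite 2.0.0, Python 3.11.15, pandas 2.3.3 and matplotlib 3.10.9.

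The 2 BeadChips held replicates 1 and 2 and replicates 3 and 4 of both groups. Same-numbered samples deviated together from their group means, with correlations of 0.27 to 0.571, all over 0.1. Those of other numbers ran from -0.617 to 0.583. LN replicates 1, 2 and 3 each correlated more with the other-numbered spleen replicate of their BeadChip (0.406, 0.583 and 0.415). Their same-numbered values were 0.309, 0.571 and 0.27. These correlations therefore cannot tell pairing by number from the BeadChip. Since the series text says both organs came from the same mice, the numbers were taken to pair the samples, which was not tested. The main fit left this pairing out, while the replicate block and the exact test over same-numbered pairs used it. The members, the gene lists and the naming rule were chosen with earlier results of these data known. By that rule every member was named, and array values were given for up to 3 called members per role, those with a positive fold and the smallest uncalled fold. Values of Cmpk2, Trim30a and other members outside it were added after they were seen. The alternatives were other scalings, offsets, background steps, detection filters and probe summaries, blocks, single BeadChips, array weights and leaving out each array.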

Additional observations from a re-analysis of the deposited data

Results flagged for a closer look

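Among the 35 members in both groups, 70 sets of 4 arrays were examined for an array far from the others, and 3 held one by Dixon's test. Chance alone sets an array apart in about 1 in 20 such sets. Parp12 read 9.32 on LN replicate 2 against 8.97 to 9.03 on the other LN arrays. Phf11d read 12.61 on LN replicate 3 against 12.32 to 12.36. Tdrd7 read 12.57 on spleen replicate 4 against 12.29 to 12.32 on the other spleen arrays.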

How the results depend on the processing

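Under 22 alternatives the members called lower ran from 9 to 25 and those called higher stayed at 0, and the member median ran from -1.13 to -0.86. Of 770 recomputed member folds 677 kept their sign and their side of the threshold, 65 lost the call, 17 gained it and 11 turned sign. Of the 22 called members 8 were called under every alternative: Isg20, Samd9l, Rsad2, Mx2, Pml, Sp100, Daxx and Slfn1. Median scaling gave 13 members, a member median of -0.86, 3 signalling genes and 10 genes of the other families, with 940 of all genes called against 1285. Without a detection filter the member median was -0.87 over 43 members. The second BeadChip alone called 9 members, 361 of all genes, 3 signalling genes and 9 of the other families. Array weights called 2698 of all genes and 9 signalling genes. Leaving out 1 array gave 16 to 25 members lower, a median of -1.09 to -0.94 (the latter without LN replicate 4), 889 to 1988 of all genes, 5 to 9 signalling genes and 16 to 24 of the other families, the highest counts without spleen replicate 4. With the replicate block 25 members were lower and 1745 of all genes were called. Beyond Mx1, Trim30a and Parp12, which it added, it changed no member's call. The fold of Adar was -0.44 with the mean of probes, 0.23 with median scaling, 0.15 on the first BeadChip, 0.30 with array weights and -0.16 to 0.22 with 1 array left out. That of Trim25 was 0.15 with median scaling, 0.14 on the second BeadChip and -0.14 to 0.051 with 1 array left out. In the exact test over same-numbered pairs, an alternative chosen after seeing the data, the differences between related members had p = 0.125 or more. The causes of these changes were not tested. The 8 members below the detection limit have no measured difference at this signal over background.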
